A study of Homo sapiens with 6 samples.

Results

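The ligands of NKG2D form a family of 8 human genes: MICA, MICB, ULBP1, ULBP2, ULBP3, RAET1E, RAET1G and RAET1L. Their mRNAs were measured in CAL-27, an established line of human tongue squamous cell carcinoma. Of the samples, 3 (shXBP-1s) came from cells with stable knockdown of XBP-1s by a short hairpin RNA, and 3 (shCtrl) from cells that carried the control. Each sample was hybridised to 1 Agilent whole human genome array in 1 colour. No other treatment separates the groups in the labels. Whether the transduced lines were clones is not stated. The labels do not say that the samples of a group were separate cultures, and the study's methods speak of repeated experiments in general, so p-values measure the spread between these samples, which may be technical. Members were found by the RefSeq accession of each probe. Of the 8 genes, 6 had a probe, MICA, MICB, ULBP1 and RAET1E with 2 each and ULBP2 and ULBP3 with 1 each. These 10 probes were members out of 34127 on the array. No probe carried an accession of RAET1G or RAET1L, so these 2 genes have no value, although a further member among the 8356 probes without a gene symbol is possible.

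NKG2D is an activating receptor of natural killer (NK) cells and of many cytotoxic T cells. Its ligands are distant relatives of the MHC class I heavy chain that carry no peptide and need no β2-microglobulin. They are scarce on most healthy cells and appear on infected, damaged or transformed cells, which are then open to killing by NK cells. MICA and MICB are transmembrane proteins encoded next to HLA-B in the MHC, whereas the ULBP and RAET1 genes lie together on the long arm of the same chromosome, and ULBP1, ULBP2 and ULBP3 are held in the membrane by a glycosylphosphatidylinositol (GPI) anchor. XBP-1s is the transcription factor made from spliced XBP1 mRNA when the sensor IRE1 responds to unfolded protein in the endoplasmic reticulum (ER). The comparison asked how the mRNA of each ligand differed when XBP-1s was knocked down in a tumour cell.

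The sequence upstream of 4 of these genes is given because their probes either changed or belong to the nearest relative of one that did. Each line holds the 250 bases before a RefSeq transcript start in GRCh38.p14, read on the coding strand, at chr6:31403345-31403594 for MICA, chr6:31497895-31498144 for MICB, chr6:149963693-149963942 for ULBP1 and chr6:149941764-149942013 for ULBP2, all on the plus strand. For ULBP1 and ULBP2 this start is the start of the gene, whereas for MICA and MICB it lies inside the annotated gene, whose first base is at 31400711 and 31494918. Capitals mark ACGTG, the core of elements bound by XBP-1s and ATF6, CCACG, the outer part of the ER stress element, and GAANNTTC or TTCNNGAA, paired units of the heat shock element, each searched on both strands and free to overlap.
MICA: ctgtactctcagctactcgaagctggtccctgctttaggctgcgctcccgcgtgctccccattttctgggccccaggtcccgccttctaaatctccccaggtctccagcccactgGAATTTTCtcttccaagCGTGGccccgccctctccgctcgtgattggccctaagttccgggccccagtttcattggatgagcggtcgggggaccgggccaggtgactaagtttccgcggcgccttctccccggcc
MICB: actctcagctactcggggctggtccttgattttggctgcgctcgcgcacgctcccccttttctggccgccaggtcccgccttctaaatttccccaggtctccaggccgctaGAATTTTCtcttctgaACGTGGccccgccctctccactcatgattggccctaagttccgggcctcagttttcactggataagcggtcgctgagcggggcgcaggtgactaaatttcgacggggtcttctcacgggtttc
ULBP1: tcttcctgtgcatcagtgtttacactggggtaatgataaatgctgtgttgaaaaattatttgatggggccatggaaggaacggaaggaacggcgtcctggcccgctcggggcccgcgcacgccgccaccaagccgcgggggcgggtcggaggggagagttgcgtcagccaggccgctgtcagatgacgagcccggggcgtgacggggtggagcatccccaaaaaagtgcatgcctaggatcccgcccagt
ULBP2: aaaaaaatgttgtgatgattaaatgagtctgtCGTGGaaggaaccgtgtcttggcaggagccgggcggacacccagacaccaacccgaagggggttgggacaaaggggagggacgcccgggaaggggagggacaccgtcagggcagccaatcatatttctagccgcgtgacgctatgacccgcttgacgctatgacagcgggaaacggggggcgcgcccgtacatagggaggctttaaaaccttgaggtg

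The MICA and MICB stretches were identical at 210 of 254 aligned positions (82.7%), whereas ULBP1 and ULBP2 shared 46.5%. Pairs from different clusters were at a like level, with 47.8% for MICA and ULBP1 and 45.1% for MICB and ULBP2. MICA and MICB both held GAANNTTC, with its first base at -135 and -139 from the start, a motif present in 6.77% of 35116 RefSeq promoter windows of 250 bases before to 50 after the start. Both also held CCACG, as 38.1% of the windows did. MICB held ACGTG, first base at -123, and MICA did not, against 21.4% of windows that did. Among the other members, ACGTG was also found in ULBP3 (-102) and RAET1E (-105 and -104). The RAET1E matches are the same CACGTG read on each strand, and the windows at the other RAET1E starts held none. The ULBP3 and RAET1E probes had positive fold changes that did not pass. In ULBP1 none of the motifs in capitals was found, and ULBP2 held CCACG alone. TTCNNGAA, in 7.74% of windows, was found only in RAET1E among the members. These matches are letters in a window and were not tested for binding.

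The arrays differed in brightness. The 75th percentile of the signal, which was set to 0 on the log2 scale of each array, ran from 687.4 to 761.3 in shCtrl and from 792.0 to 983.4 in shXBP-1s, so a signal in raw units can rise while the scaled value falls. From 82.1% to 84.8% of spots were well above background and none was saturated. XBP1, the targeted gene, was lower on every knockdown array, at a log2 fold change of -2.39 (SE 0.04, n = 3 per group, limma adjusted p = 2.81e-07). Whether its probe tells spliced from unspliced XBP1 mRNA was not tested. Slide membership was inferred from the scan time of each array, and arrays with the same time were taken as 1 slide. By this, shCtrl replicates 2 and 3 shared 1 slide, and shCtrl replicate 1 shared the other with all shXBP-1s arrays. A fit with the slide as a block therefore rests on 1 control array. In the text, a probe passed at an adjusted p below 0.05 over all 27624 tested probes.

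ULBP1 fell most among the ligands. The probe with signal (A_33_P3422802, NM_025218) read 160.9, 204.7 and 201.1 on the shCtrl arrays and 104.2, 100.0 and 87.7 on the shXBP-1s arrays, in intensity units before scaling. On the scaled log2 axis these were -2.09, -1.89 and -1.91 against -3.24, -3.16 and -3.18. All shXBP-1s arrays lay below all shCtrl arrays and the groups were far apart relative to their spread. The scaled shCtrl mean was -1.97 ± 0.11 (SD, n = 3), and the knockdown mean was -3.19 ± 0.04 (SD, n = 3). The log2 fold change was -1.23 (95% interval -1.40 to -1.05, SE 0.07, limma adjusted p = 1.00e-05), so that shXBP-1s held 42.8% of the control signal. It was the only member probe to pass with at least a 2-fold change, as 2.61% of all tested probes did in the same direction, and 1.41% of tested probes had a lower fold change. The exact permutation test, 2-sided, gave p = 0.1, the lowest value this number of arrays can reach.

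ULBP1 passed under each of the 17 alternatives run for it. Its value was smaller by over 1.5 times with normexp background correction followed by quantile normalization (-0.67), and within the slide that held both groups it was -1.10. The other ULBP1 probe (A_33_P3422810) carried the same accession but was not well above background on any array, with signals from 4.7 to 6.7, and was not tested. Its target within the transcript is not given in the files used here. In these bulk samples, a lower level in each cell and fewer cells with the transcript cannot be told apart.

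**Figure D1:**
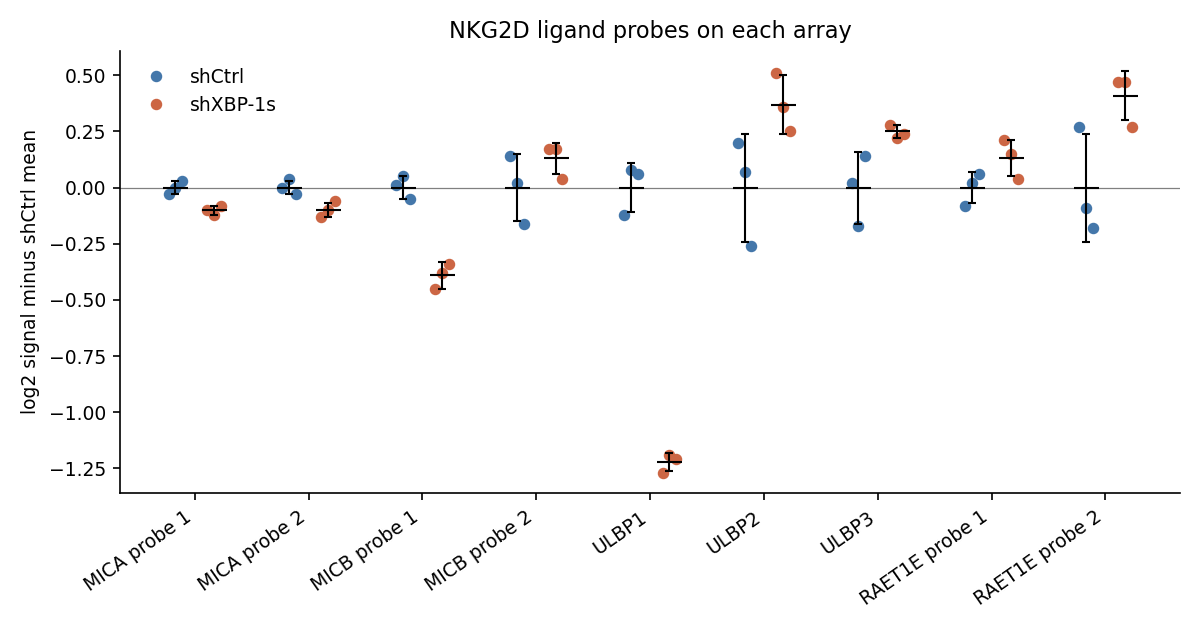
Scaled log2 signal of the 9 tested probes on each array, minus the shCtrl mean of that probe, with probe 1 the brighter of a gene. Points are arrays (3 per group), horizontal bars the group means and whiskers the SD. The ULBP1 points of shXBP-1s lie about 1.2 below the control points, those of MICB probe 1 also lie below all of its control points, and the remaining shXBP-1s points lie nearer to the control mean than those of ULBP1.

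MICB, stress inducible and the closest relative of MICA, was measured by probes that did not move together. The brighter (A_23_P387471, NM_005931) read 2374.7, 2698.0 and 2507.8 on the shCtrl arrays and 2476.4, 2365.4 and 2152.2 on the shXBP-1s arrays. Scaled, the values were 1.79, 1.83 and 1.73 against 1.33, 1.40 and 1.44. The groups overlapped in raw signal and were separate after scaling. The log2 fold change was -0.39 (95% interval -0.50 to -0.28, SE 0.05, limma adjusted p = 4.31e-04), a level of 76.4% of the control. The dimmer probe (A_24_P169688) had scaled values of -1.59, -1.71 and -1.89 in shCtrl and -1.56, -1.56 and -1.69 in shXBP-1s. These overlapped, and the log2 fold change of 0.13 (95% interval -0.07 to 0.32) did not pass (limma adjusted p = 0.277).

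The log2 ratio of the brighter to the dimmer MICB probe within an array was 3.38, 3.54 and 3.62 in shCtrl and 2.89, 2.97 and 3.13 in shXBP-1s. The change of the ratio was -0.52, with no overlap between the groups (exact permutation test, 2-sided, p = 0.1, the smallest possible). The mean of both probes had a log2 fold change of -0.13 and did not pass (limma adjusted p = 0.0832), so the fall of MICB rests on its brighter probe. Which transcripts each probe detects, and whether either reads MICA RNA, was not tested, since the files used here hold no probe sequences.

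MICA, which binds NKG2D and is shed from many tumour cells, had a small shift that did not pass. Its brighter probe (A_33_P3368453, NM_000247) had scaled values of 1.61, 1.64 and 1.67 in shCtrl and 1.54, 1.52 and 1.56 in shXBP-1s. The other probe (A_33_P3368452) had 0.07, 0.11 and 0.04 against -0.06, -0.03 and 0.01. In both, the groups were separate but close. The log2 fold changes were -0.10 (95% interval -0.19 to 0.00, limma adjusted p = 0.104) and -0.10 (95% interval -0.20 to 0.01, limma adjusted p = 0.117). The ratio of the MICA probes within an array was 1.53, 1.53 and 1.64 in shCtrl and 1.60, 1.55 and 1.55 in shXBP-1s. The group means differed by 0.00, with overlap (exact permutation test, 2-sided, p = 1.0). With the 2-tailed test named in the study's methods, the brighter MICA probe passed after adjustment at the same fold change. The brighter MICB probe changed relative to the brighter MICA probe by -0.29 on the log2 scale, with separate groups (exact permutation test, 2-sided, p = 0.1).

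ULBP2, the neighbour of ULBP1, was higher by a small margin. Its probe (A_23_P145485, NM_025217) read 161.3, 163.1 and 129.0 on the shCtrl arrays and 286.1, 234.0 and 193.0 on the shXBP-1s arrays. The scaled values were -2.09, -2.22 and -2.55 against -1.78, -1.93 and -2.04. The lowest shXBP-1s array lay just above the highest shCtrl array. The log2 fold change was 0.37 (95% interval 0.09 to 0.65, SE 0.12, limma adjusted p = 0.0420). The call was lost under 11 of 17 alternatives, and within the slide that held both groups the value was 0.17. RefSeq lists RAET1L among the synonyms of ULBP2, and the ULBP2, RAET1G and RAET1L transcripts are close relatives, so a shared signal on this probe is possible and was not tested.

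The log2 ratio of ULBP1 to ULBP2 within an array was 0.00, 0.33 and 0.64 in shCtrl and -1.46, -1.23 and -1.14 in shXBP-1s. The change was -1.60 with separate groups (exact permutation test, 2-sided, p = 0.1). ULBP1 was thus lower relative to ULBP2 on every shXBP-1s array than on any shCtrl array.

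ULBP3 and RAET1E, whose protein is also called ULBP4, gave dim signals. ULBP3 (A_23_P134100, NM_024518) read from 10.9 to 13.4 on the shCtrl arrays and from 15.1 to 19.3 on the shXBP-1s arrays, against a lowest signal well above background of 4.86 to 7.35. Its log2 fold change was 0.25 (95% interval -0.09 to 0.58) and did not pass (limma adjusted p = 0.210). The brighter RAET1E probe (A_23_P8253, NM_139165) read from 23.2 to 28.1 and from 29.1 to 40.5, with a log2 fold change of 0.13 (95% interval -0.10 to 0.37, limma adjusted p = 0.336). The dimmer (A_33_P3279847) read from 13.7 to 17.1 and from 19.7 to 28.1, with a log2 fold change of 0.41 (95% interval 0.04 to 0.77, limma adjusted p = 0.0717). It passed without shCtrl replicate 1 (0.54, limma adjusted p = 0.0142). All 3 probes were well above background on all 6 arrays, yet their sign turned with normexp background correction, which moved the median of all tested probes to -0.41. With quantile normalization after it, the brightest probes of ULBP3 and RAET1E were at 0.01 and 0.03.

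**Figure D2:**
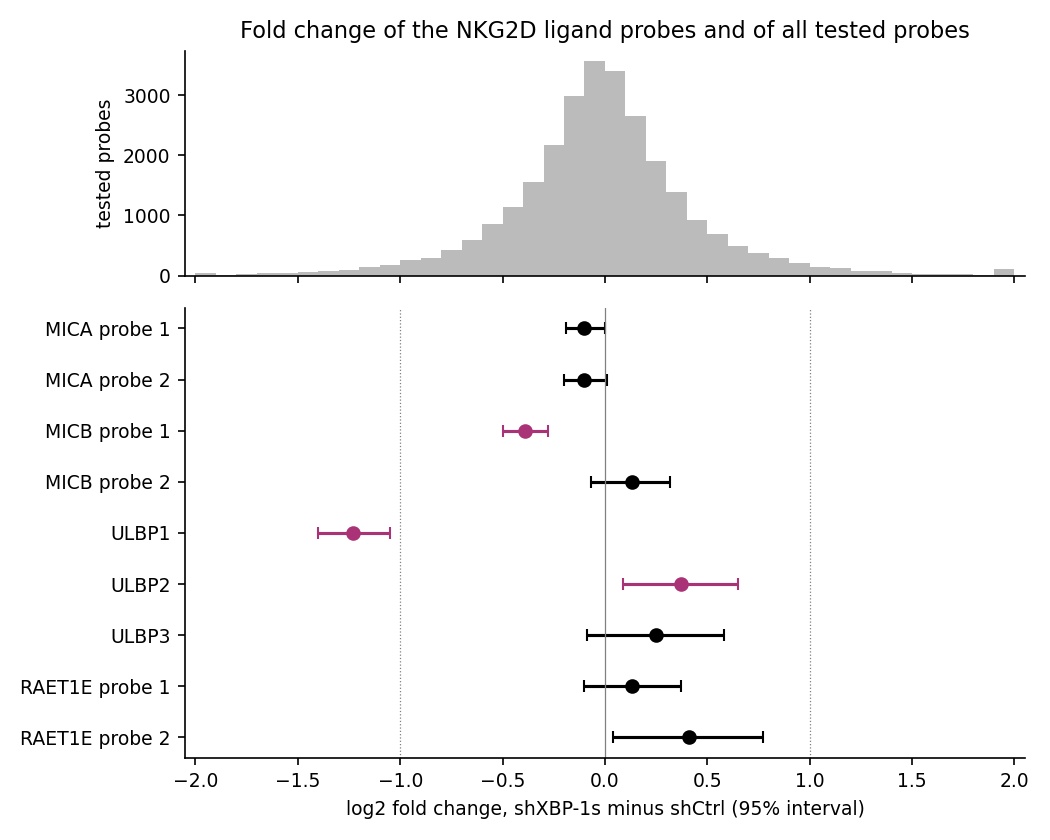
Upper panel, histogram of the log2 fold changes (shXBP-1s minus shCtrl) of all 27624 tested probes, with values beyond 2 in the outermost bars. Lower panel, the 9 tested ligand probes with 95% intervals from limma, coloured where the adjusted p was below 0.05 (ULBP1, MICB probe 1 and ULBP2); dotted lines mark a 2-fold change, which ULBP1 alone passed.

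Over the family, 9 of the 10 probes were bright enough to test. Of these, 2 passed as lower, ULBP1 and the brighter MICB probe, against 23.3% of all tested probes, and 1 passed as higher, ULBP2, against 18.4%. The other 6 did not pass. Groups did not overlap for 7 of the 9, against 52.4% of all tested probes. Fold changes were negative for 4 probes and positive for 5, with a median of 0.13 against -0.02 for all tested probes. By the brightest probe of each gene, the median of the 6 genes was 0.02. The counts in either direction were near those of the array as a whole, and the probes that passed did not share a direction.

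**Figure D3:**
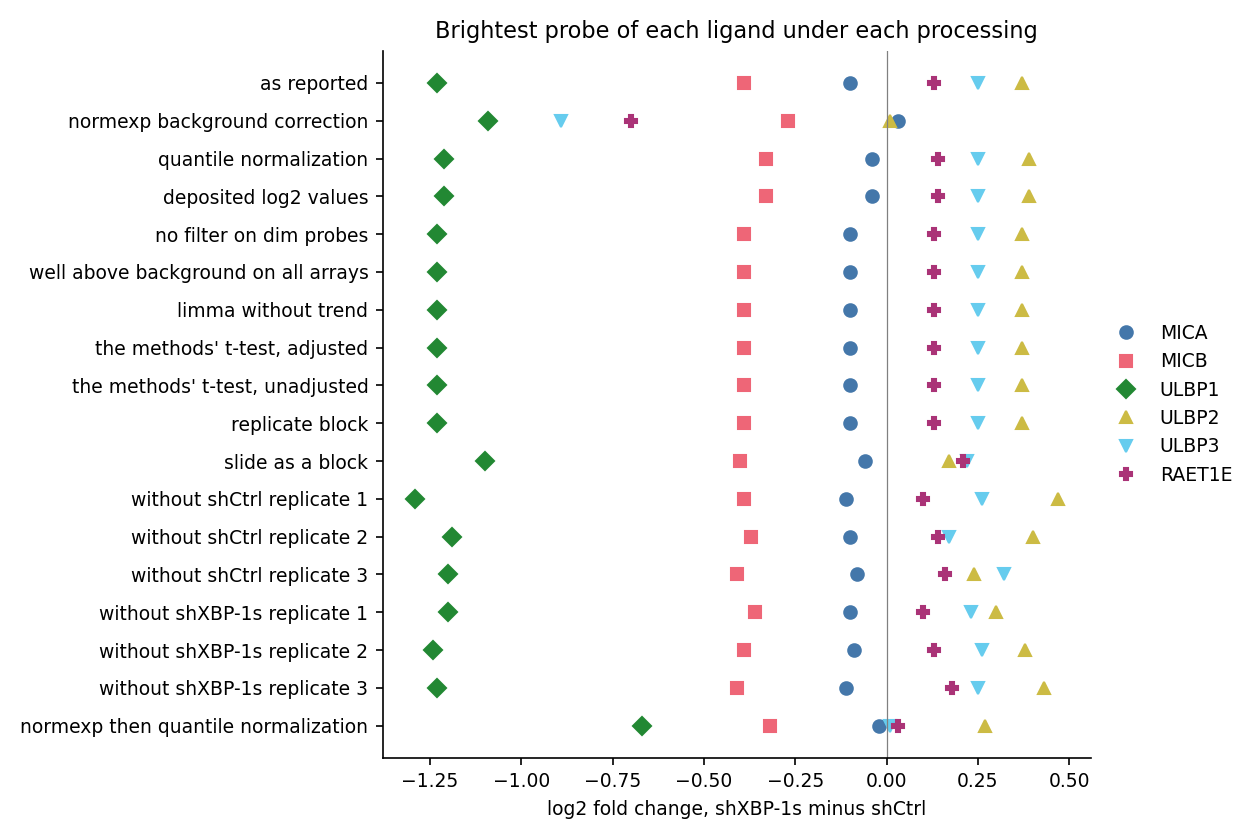
Log2 fold change (shXBP-1s minus shCtrl) of the brightest probe of each of the 6 measured ligands under each processing, 1 row per setting and 1 symbol per gene. ULBP1 stays lowest in every row, between -1.29 and -0.67, MICB stays below 0, and under normexp background correction ULBP3, RAET1E and, narrowly, MICA lie on the other side of 0.

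Among the receptor genes, KLRK1, which encodes NKG2D itself, was not well above background on any array, with signals from 1.0 to 4.7. HCST, the DAP10 adaptor that signals for NKG2D, had a log2 fold change of -0.11 and did not pass (limma adjusted p = 0.146). TYROBP, the DAP12 adaptor of other NK receptors, passed as higher at 0.33 (limma adjusted p = 0.0263), but the call was lost under 7 alternatives, and its sign turned with normexp background correction (-0.33).

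Of 8 tested genes for cleavage of ligands from the surface, 4 were higher and 2 lower, by the brightest probe. The background over 16821 genes was 18.9% higher and 27.5% lower. The matrix metalloproteases MMP9 (0.56) and MMP14 (0.48) and the sheddase ADAM10 (0.28) rose, and the metalloprotease inhibitors TIMP1 (-0.59) and TIMP3 (-0.62) fell, all log2 fold changes. PDIA6 also passed as higher (0.18, limma adjusted p = 0.0408). ADAM17 (0.17, limma adjusted p = 0.204) and ADAM9 (-0.19, limma adjusted p = 0.106) did not pass. MMP9 was dim, from 59.3 to 122.1, and changed sign with normexp background correction (-0.19). MMP14 and TIMP3 did not pass with the slide as a block (0.43 and -0.65) or with the methods' test after adjustment, at folds near those above. Under normexp neither passed, at 0.10 for MMP14 and -0.96 for TIMP3. The median of this list, which holds both proteases and inhibitors, was 0.17, against -0.04 over all tested genes. Of 8 genes for attachment and remodelling of the GPI anchor, 3 were lower, PIGK (-0.47), PIGS (-0.38) and PGAP3 (-0.19). PIGK and PIGS are subunits of the transamidase that joins the anchor to the protein, and the dimmer PIGK probe was higher (0.25, limma adjusted p = 0.00342). PGAP3 lost its call under 8 alternatives. The dimmer PIGS probe was at -0.12 and did not pass (limma adjusted p = 0.428). PGAP1 did not pass by its brightest probe (0.09), but its dimmer probes passed as higher, at 0.45 (limma adjusted p = 0.00132) and 0.35 (limma adjusted p = 0.00667). By the brightest probe, 0 of the 8 passed as higher in limma, and 1 was higher at an unadjusted p below 0.05. Quantile normalization and the deposited log2 values each gave 2 higher, and normexp gave 1 lower.

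By the brightest probe, 27.5% of all tested genes were lower and 18.9% higher. Of 19 genes for transcription and damage signalling that have been linked to NKG2D ligands, 8 were lower and 4 higher. Their median was -0.05. The lowest p-values belonged to HSPA1A (-0.63), a heat shock chaperone, MYC (0.66), CREBBP (-0.94), a histone acetyltransferase, SP1 (-0.50), which binds GC boxes, and CHEK2 (-0.47), a DNA damage kinase. The dimmer CHEK2 probe was at 0.02 and did not pass (limma adjusted p = 0.938). ATF4, a transcription factor of the ER stress response chosen here after its value was seen, was at 0.02 (limma adjusted p = 0.829), a value that was 0.00 once shCtrl replicate 1 was left out and -0.01 once shXBP-1s replicate 3 was. Of 10 tested ligands for other NK cell receptors, 4 were higher and 2 lower, with a median of 0.08. PVR, bound by DNAM-1 and TIGIT, rose by all of its probes, with 1.14 for the brightest and 0.54 and 0.52 for the others, though the brightest did not pass with normexp (0.37), and CD58, the ligand of CD2, rose by 0.48. NECTIN3 was higher by 0.30. CLEC2D was at 0.00 by its brightest probe, but its dimmer probes passed as lower. These were at -0.48 (limma adjusted p = 0.00486) and -1.99 (limma adjusted p = 1.97e-04). The probe at -1.99 was well above background on only 3 arrays, with signals from 3.3 to 12.6. CLEC2B, the ligand of NKp80, fell by 0.93, and NECTIN2, a further ligand of DNAM-1, fell by 0.62 on the log2 scale by the brightest probe, while its dimmer probe was at 0.15 (limma adjusted p = 0.118). RAET1K, a transcribed pseudogene of the RAET1 cluster, was not well above background on any array, with signals from 1.5 to 3.2.

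**Figure D4:**
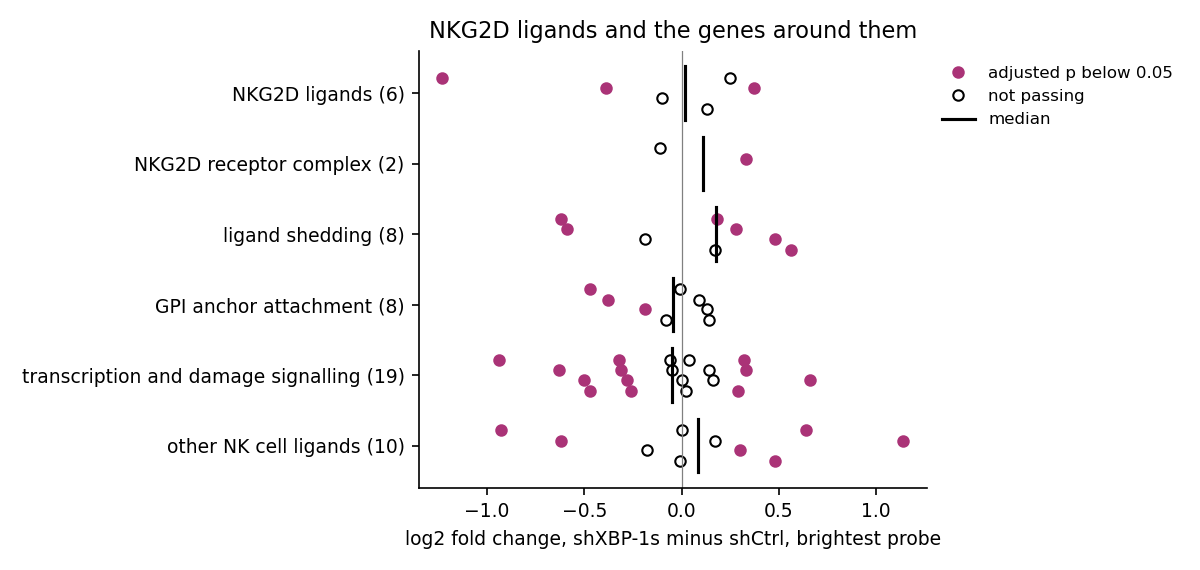
Log2 fold change (shXBP-1s minus shCtrl) of the brightest tested probe of each gene, 1 row per list with the number of tested genes in brackets. Filled points passed an adjusted p below 0.05, open points did not, and black bars are medians, which lie between -0.05 and 0.17. ULBP1 is the lowest point drawn and PVR (1.14) the highest.

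Marker genes were read as a check of the cells, on arrays where 27.5% of all tested genes were lower and 18.9% higher. The squamous markers were all well above background on all arrays, and 5 of 7 were higher in shXBP-1s. These were the keratins KRT6A (log2 fold change 4.28), KRT14 (1.58) and KRT5 (1.43), the transcription factor TP63 (0.93) and the brightest probe of EGFR (0.67, with -0.32 and 0.37 for its others). The adhesion genes CDH1 (0.13) and EPCAM (0.01) did not pass. The summed signal, not scaled between arrays and mostly that of CDH1 and EPCAM, ran from 44314.5 to 48449.2 in shCtrl and from 67453.1 to 75075.6 in shXBP-1s, whose arrays were also brighter. Of 7 lymphocyte and NK cell markers, 5 were tested and 1 passed, CD2 (0.70), with a sum of 353.3 to 444.1 against 474.8 to 541.2. By their brightest probe, PTPRC, CD3E, NKG7 and GNLY were well above background on all arrays and did not pass. NKG7 read 21.9 to 28.5 and GNLY 18.3 to 30.8. A dimmer PTPRC probe passed as higher (0.40, limma adjusted p = 0.038), and the remaining PTPRC probes were too dim to test. KLRD1 and NCAM1 were not well above background on any array. Of the other lists, macrophage markers gave 1 lower and 2 higher of 3 tested, with sums of 3231.3 to 4938.1 and 3270.2 to 4125.9, and fibroblast markers 2 lower and 1 higher of 3, with sums of 600.2 to 740.4 and 432.0 to 552.8. CD14 fell by 0.84 and CD68 (0.65) and CSF1R (1.04) rose. LUM, a matrix proteoglycan, rose by 1.94, and PDGFRB (-1.28) and COL1A1 (-0.63) fell, all on the log2 scale. COL3A1 was not well above background on any array. Some of these calls were lost with normexp background correction. It gave 1 lower and 0 higher among the fibroblast markers, so LUM did not pass as higher. Macrophage markers then gave 1 higher, and lymphocyte and NK cell markers 0 higher, so the call of CD2 was lost. The endothelial markers PECAM1 (0.17) and CDH5 (0.26) did not pass, with sums of 120.7 to 147.8 and 161.0 to 208.4. The part of these changes in the ligand results was not tested.

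The genes whose brightest probe followed a ligand most closely were sought for MICB and MICA, the ligands with the highest mean signal. By Pearson's r over the 6 arrays, without a test, these were PEBP1 (0.999), METTL4 (0.998) and PEX7 (0.998) for MICB and TTC9C (0.996), KCNJ2-AS1 (0.993) and MCEE (0.992) for MICA. With 3 arrays in each group, such a value mostly reflects the difference between the groups.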

How the data were processed

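Microarray intensities of 6 CAL-27 samples were analysed, grouped by the sample titles. Scanner output of Agilent Feature Extraction 11.0.1.1 was deposited. Its processed intensity had been background-subtracted and detrended by the authors' software, without normalization between arrays. The labelling procedure in the labels is one for another array maker, whereas the files and the study's methods name Agilent. The spot flags of that output (deposited score columns of 0 and 1) were used as filters. A deposited table of log2 values, equal in quartiles on all arrays, served as an alternative. The submitters' processing notes name RMA, and the further steps are not given in the sources used here. The header names hg19 as the array's build; loci and promoters come from RefSeq on GRCh38.p14.

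Flagged spots, 230 to 377 per array, were removed, log2 intensities were set relative to each array's 75th percentile, and repeat spots were averaged by probe. A gene symbol was found by accession for 25771 of 34127 probes. A probe was tested if every array of either group had it well above background, which left 27624. The fit used limma 3.58.1 under R 4.3.3 (lmFit, eBayes with trend, 2-sided, Benjamini-Hochberg over all tested probes). The number of arrays limits precision. The test was tested on simulated data. The members and the lists were chosen with earlier results of these data known. Named were all members, XBP1, the receptor genes, up to 5 passing genes of each list by p, and the 3 genes most like each of the 2 brightest members. The other tested shedding genes, PGAP1 and CLEC2D were named after their values were seen. Same-numbered samples did not deviate together (correlations -0.02, 0.12 and -0.12), so no pairing was used. Alternatives were normexp (offset 50, on median spot signals), quantile normalization, the deposited values, other filters and thresholds, limma without trend, the methods' t-test, the replicate number or slide as a block, the mean over probes, leaving out each array and, chosen after seeing the data, normexp with quantile normalization.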

Additional observations from a re-analysis of the deposited data

How the results depend on the processing

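ULBP1 and the brighter MICB probe kept their direction and passed under every alternative run for single probes, with fold changes on the log2 scale of -1.29 to -0.67 and -0.41 to -0.27. MICB did not pass as the mean of its probes (-0.13). The count of lower probes was 4 with the methods' t-test unadjusted and 1 with the 2-fold minimum. The count of higher probes was 0 under normexp, without a filter on dim probes, under limma without trend, under the methods' t-test, adjusted or not, with the slide as a block and with the 2-fold minimum, and between 0 and 2 with each array left out. It was 2 without shCtrl replicate 1 and 0 without any one of the other arrays. ULBP2 then did not pass at 0.01 under normexp, at 0.17 with the slide as a block, at 0.37 without a filter, without trend and with the t-test, and its value lay between 0.24 and 0.47 with each array left out. The MICA value of -0.10 passed with the t-test, adjusted and unadjusted. Signs turned under normexp for MICA (0.03), the dimmer MICB probe (-0.15), ULBP3 (-0.89), both RAET1E probes (-0.70 and -0.79), TYROBP (-0.33) and MMP9 (-0.19), while the median of all tested probes moved to -0.41. With the slide as a block the dimmer MICB probe was at -0.02. ATF4 lay between -0.01 and 0.05 with each array left out. The cause was not tested. With the replicate block the counts were 2 lower and 1 higher, and ULBP2 was at 0.37 (limma adjusted p = 0.00794); it changed no member call. Across all probes, normexp gave 2448 lower and 2059 higher probes, against 6423 and 5093. Dim probes, those of ULBP3 and RAET1E, are limited by their signal over background.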

Other observations

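Some genes around both ligand clusters also differed between the groups, a set chosen after its values were seen. Within 100 kb of MICA and MICB, 12 other genes were tested, of which 6 were lower and 6 did not pass, against 27.5% of all tested genes that were lower. HCP5 and HCG26, noncoding genes that lie between MICA and MICB, had log2 fold changes of -0.50 (SE 0.08, limma adjusted p = 0.00186) and -1.61 (SE 0.08, limma adjusted p = 3.90e-06), both further than either ligand by its brightest probe. The cytokine genes TNF (-1.13) and LTB (-1.12) were lower, as were LST1 (-0.79) and ATP6V1G2 (-0.37), and HLA-B, on the other side of MICA, was at -0.13 (limma adjusted p = 0.271). Beside the ULBP and RAET1 cluster, PCMT1 was lower (-0.33), and LRP11 (0.20) and PPP1R14C (0.72) were higher. Calls of ATP6V1G2, LST1 and LRP11 were lost with normexp (-0.74, -0.98 and 0.12) and with the slide as a block (-0.31, -0.62 and 0.17). Near ULBP1, which fell, its neighbours within the cluster ULBP2 (0.37) and ULBP3 (0.25) had positive values, of which ULBP3 did not pass (limma adjusted p = 0.210).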
